A study of Drosophila melanogaster with 12 samples.

Results

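Transcript levels in adult heads of y w; tim01 flies were compared between the hours around dusk and the hours around dawn of 1 light-dark day (LD). The arrays were chosen by the hour in their titles. The dusk group held ZT6, ZT10 and ZT14, which follow hours of light, and the dawn group held ZT18, ZT22 and ZT2, which follow hours of darkness (ZT counts hours from lights-on). These are 6 of the 12 arrays of the study, 3 in each group. The other 6 arrays came from the next day, spent in constant darkness (DD): CT6, CT10 and CT14 as DD dusk hours, and CT18, CT22 and CT2 as DD dawn hours (CT hours run from the start of the subjective day). Before sampling, the flies had lived for 3 days in 12 h of light and 12 h of darkness, and about 100 to 200 heads were taken every 4 h. All 12 samples carry tim01, a loss-of-function allele of timeless, together with y and w, so the eyes lack their screening pigment in every group. Wild-type flies were not analysed here, and the labels give neither age nor sex.

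In wild-type heads a feedback loop of transcription factors makes many transcripts rise and fall each day, and TIM protein is needed for that loop. Light also reaches transcripts directly through the photoreceptors, whose rhodopsins open cation channels and whose synapses release histamine. A transcript that builds up slowly under light and decays slowly after lights-off peaks late in the day and is still high early in the night, so it splits more clearly into dusk and dawn hours than into light and dark hours.

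Values are log2 RMA signals, made by the authors, of 13966 probe sets without the control probe sets. The 12 array medians lay between 4.10 and 4.14, and the LD arrays correlated at 0.991 to 0.997 across probe sets. The arrestin genes Arr1 and Arr2, which mark photoreceptors, read 10.94 to 11.37 and 11.76 to 12.09 on the 12 arrays, as the head label implies. Each array is a different hour, so errors and p-values measure the spread between hours of a group, technical differences included. Transcripts of other body parts stood high on 3 arrays: ZT2 and ZT18, both dawn hours, and CT2. The digestive protease gene betaTry read 6.19, 6.23 and 6.28 at ZT6, ZT10 and ZT14, against 7.07, 6.18 and 8.66 at ZT18, ZT22 and ZT2. The accessory gland gene Mst57Da read 3.84, 3.83 and 3.93 at the dusk hours, against 6.01, 3.87 and 7.26 at the dawn hours. Values without these 3 arrays are given beside the calls and the gene groups.

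**Figure D1:**
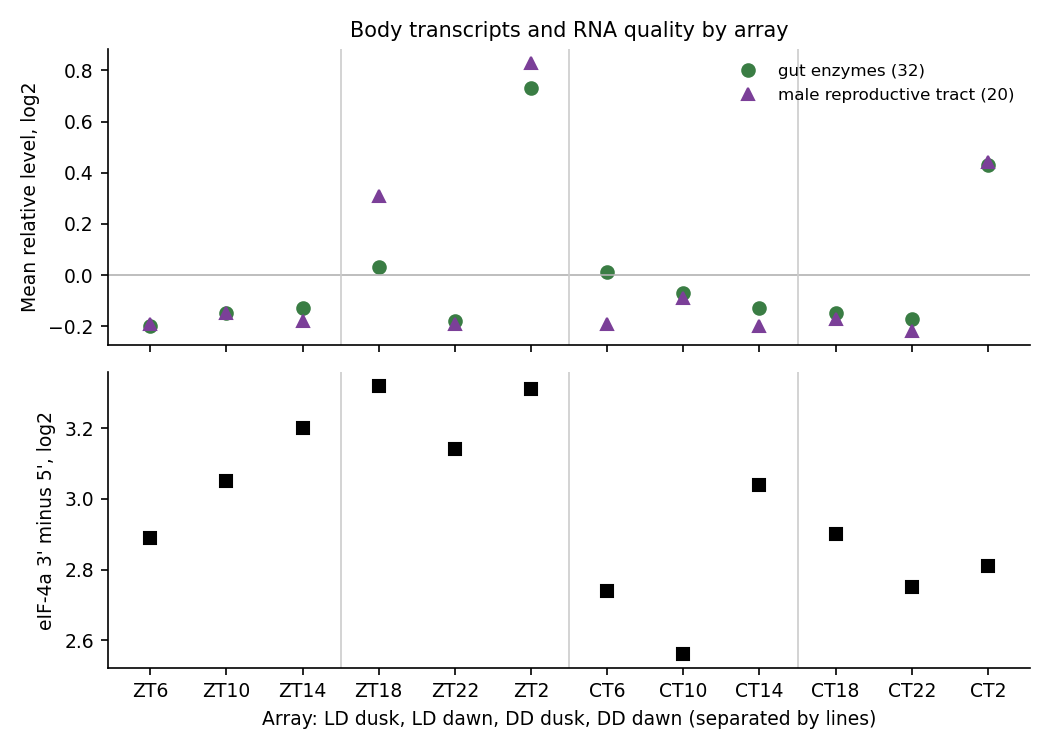
Upper panel: mean log2 level of 32 gut enzyme genes (circles) and 20 male reproductive tract genes (triangles) on each array, relative to each gene's mean over the 12 arrays. Lower panel: 3' minus 5' log2 signal of the eIF-4a control probe sets, a measure of RNA quality. The list levels of the LD dusk arrays lay between -0.20 and -0.13, and ZT2 reached 0.73 and 0.83.

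In LD, 3 transcripts rose at the dusk hours and 0 fell (limma, Benjamini-Hochberg adjusted p under 0.05; 0.0215% of the 13966 probe sets higher and 0% lower). All had their highest level at ZT10, late in the light. They encode the uncharacterised CG2121, the mitochondrial magnesium exporter MME1, and CarT, the transporter that returns carcinine to photoreceptors when histamine is recycled. At an unadjusted p under 0.05, 550 probe sets were higher at dusk (3.94%) and 348 lower (2.49%), 898 in all (6.43%). The alternatives run gave 0 to 4 lower calls.

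CG2121 had 6.64, 7.04 and 6.53 at ZT6, ZT10 and ZT14, against 5.53, 5.52 and 5.80 at ZT18, ZT22 and ZT2. The groups did not overlap, and every dusk value also lay above the 6 DD values, which ran from 5.32 to 5.73. The mean was 6.73 ± 0.27 at dusk and 5.62 ± 0.16 at dawn (SD, n = 3 arrays each). This is a change of 1.12 ± 0.13 (log2, SE), or 2.17-fold, with an adjusted p of 0.00464. The other probe set of CG2121 was dim and gave a change of 0.04 (adjusted p = 0.970), so the probe sets of this gene disagree.

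MME1 exports magnesium ions from mitochondria. Its levels were 5.59, 5.90 and 5.44 at the dusk hours, against 4.84, 4.75 and 5.05 at the dawn hours, with no overlap. The 6 DD values, from 4.80 to 5.03, lay within the range of the LD dawn hours. The means of 5.65 ± 0.24 at dusk and 4.88 ± 0.15 at dawn (SD, n = 3 arrays each) differed by 0.77 ± 0.11 (SE), or 1.70-fold (adjusted p = 0.0102).

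CarT read 4.25, 4.36 and 3.86 at the dusk hours, against 3.29, 3.44 and 3.26 at the dawn hours. The groups did not overlap here either, and in DD the gene read lower still, from 2.69 to 3.06. The change was 0.83 ± 0.12 (SE), or 1.78-fold (adjusted p = 0.0102), with means of 4.16 ± 0.26 and 3.33 ± 0.09 (SD, n = 3 arrays each). The called probe set was itself dim, with a mean of 3.32 over the 12 arrays. A dimmer probe set of CarT, at 1.62 to 2.35 on the 12 arrays, gave 0.35 ± 0.10 (SE) and did not pass (adjusted p = 0.440). In RNA from whole heads, more transcript per cell and more cells of a type cannot be told apart.

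These calls rest on few arrays. Without ZT18, limma called 0 probe sets (776 at an unadjusted p under 0.05), and the changes were 1.07, 0.75 and 0.81 for CG2121, MME1 and CarT (adjusted p = 0.0704, 0.111 and 0.111). Without ZT2, ZT18 and CT2 it also called 0 (789 at an unadjusted p under 0.05), while the changes stayed at 1.21, 0.89 and 0.72 (adjusted p = 0.0810, 0.107 and 0.353). The count was 7 without ZT2 or without ZT14, and 6 without ZT22 or without CT2. MME1 also missed the threshold without ZT10 (0.64, adjusted p = 0.0573) or ZT22 (0.70, adjusted p = 0.0519), and CarT without ZT6 (0.78, adjusted p = 0.0871) or ZT10 (0.73, adjusted p = 0.0663). The 3' minus 5' signal of the eIF-4a control was 2.89 to 3.20 on the dusk arrays and 3.14 to 3.32 on the dawn arrays. That of the GAPDH control was 2.28 to 2.47 on the dusk arrays and 2.40 to 2.73 on the dawn arrays. The actin control did not share this order. It read 2.63 to 2.90 on the dawn arrays, and its lowest dusk value was 2.65. Its highest value of all arrays was at ZT6, a dusk hour. With the eIF-4a value as a covariate only CG2121 passed, and MME1 and CarT changed by 0.71 and 0.79 (adjusted p = 0.173 each).

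**Figure D2:**
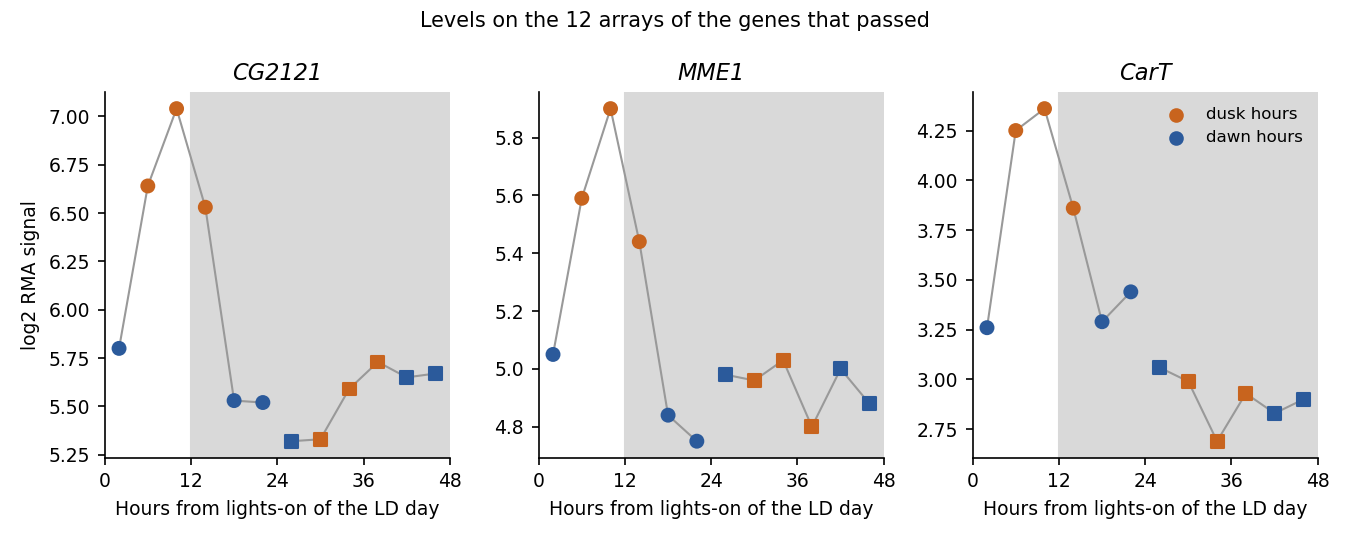
Log2 RMA signal of CG2121, MME1 and CarT on the 12 arrays, by hours from lights-on of the LD day. Circles are LD arrays, squares are DD arrays, orange marks dusk hours and blue dawn hours, and grey shading marks darkness. Each gene peaked at ZT10 with 7.04, 5.90 and 4.36, and its DD points lay below all LD dusk points.

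The next 9 genes by p did not pass. Some of them passed in a few of 24 alternatives: GstD3 in 6, Slob in 4, CG17575, CG9837 and rdgC in 3 each, Arc2 in 2 and CG12868 in 1. Of these genes, GstD3, a glutathione S-transferase that conjugates foreign or oxidised molecules to glutathione, came closest. It read 5.37, 5.34 and 5.40 at the dusk hours, against 4.95, 4.89 and 4.92 at the dawn hours, and 4.81 to 5.08 in DD. The spread within each group, an SD of 0.03, was small beside the difference of 0.45 ± 0.07 (SE, adjusted p = 0.0511), and 0.48 without the 3 arrays (adjusted p = 0.287). GstD genes lie in a cluster of close copies, so the probes may pick up neighbours. CG9837 (0.51 ± 0.09, adjusted p = 0.0724), CG12868 (0.44 ± 0.08, adjusted p = 0.0886) and spict, which restrains growth factor signalling at synapses (0.36 ± 0.07, adjusted p = 0.183), also read higher at dusk.

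Arc2, whose protein forms virus-like capsids related to neuronal Arc, had 3.70, 4.25 and 3.02 at the dusk hours, against 2.63, 2.81 and 2.67 at the dawn hours. The groups did not overlap, but the dusk values spread widely (SD 0.61), and the change of 0.95 ± 0.20 (SE) did not pass (adjusted p = 0.183). With a 24 h cosine that peaks at hour 10 in place of the group means, or without ZT14, Arc2 did pass.

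On the lower side, Slob encodes a protein that binds the Slowpoke potassium channel. It read 7.22, 7.17 and 7.63 at the dusk hours, against 7.91, 7.99 and 7.93 at the dawn hours, and 7.71 to 8.11 in DD. All dusk values were below the other 9 arrays, with a difference of -0.61 ± 0.11 (SE, adjusted p = 0.110), while the other Slob probe set gave 0.01. Without the 3 arrays the difference was -0.65 (adjusted p = 0.353). The rhodopsin phosphatase gene rdgC had 4.30, 4.03 and 4.25 at the dusk hours, against 4.87, 4.94 and 4.45 at the dawn hours. Its difference was -0.56 ± 0.11 (adjusted p = 0.149), and -0.75 without the 3 arrays (adjusted p = 0.107). It passed without ZT2 alone (-0.71, adjusted p = 0.00626), with the level of gut and male transcripts as a covariate (-0.68, adjusted p = 0.0490) and with the cosine (-0.57, adjusted p = 0.0140). CG17575 (-0.47, adjusted p = 0.0689) and the junction protein gene smash (-0.43, adjusted p = 0.110) had no overlap between dusk and dawn but were dim, with means of 2.93 and 2.33 over the 12 arrays. The other probe sets of smash gave -0.38, -0.09, -0.04 and 0.17, so they disagree in sign.

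Of the 12 genes with the smallest p, 9 had all LD dusk values outside the range of the other 9 arrays. CG2121, MME1, CarT, GstD3, CG12868, Arc2 and spict lay above it, and Slob and rdgC below it. Among all probe sets, 1.22% lay above and 0.802% below. CG17575, CG9837 and smash overlapped with DD arrays. The genes were ranked on the same LD arrays, so this count describes them and tests nothing.

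**Figure D3:**
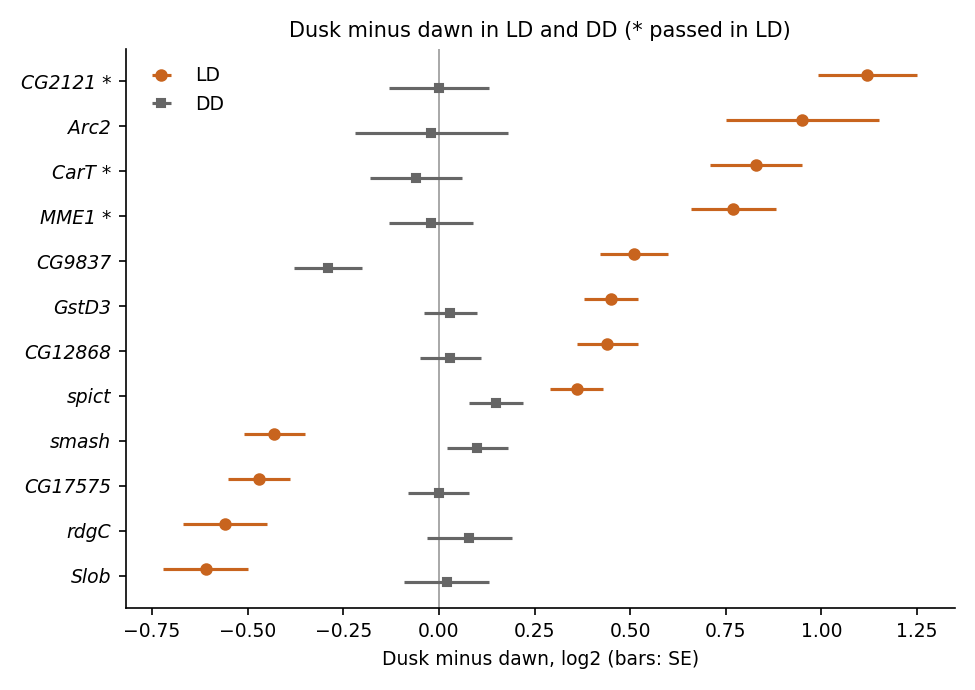
Dusk minus dawn change (log2) in LD (orange circles) and in DD (grey squares) of the 12 genes with the smallest p in LD; bars are limma's SE and an asterisk marks the 3 genes that passed. The LD changes ran from -0.61 for Slob to 1.12 for CG2121, and the DD changes from -0.29 to 0.15.

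The same clock hours in darkness gave no such calls. In DD, limma called 0 probe sets (679, or 4.86%, at an unadjusted p under 0.05; smallest adjusted p 0.966), and each alternative run also gave 0. The changes of CG2121, MME1 and CarT were 0.00, -0.02 and -0.06 there. The test of the LD minus DD difference called 0 probe sets as well (605, or 4.33%, at an unadjusted p under 0.05), so the LD changes were not shown to differ from those in DD. That difference was 1.11 ± 0.19 (SE) for CG2121 (adjusted p = 0.170), 0.79 ± 0.15 for MME1 (adjusted p = 0.295) and 0.90 ± 0.16 for CarT (adjusted p = 0.243). In the fit of a 24 h cosine with its peak at hour 10, the difference passed for CG2121 and MME1.

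CG9837 had the smallest p of the LD minus DD difference. It read 5.25, 5.40 and 5.46 at the LD dusk hours, against 4.71, 4.83 and 5.02 at the LD dawn hours. In DD the order was turned, with 4.95, 4.94 and 4.93 at the dusk hours, against 5.13, 5.40 and 5.16 at the dawn hours. The DD change was -0.29 and the LD minus DD difference 0.80 ± 0.13 (SE), which did not pass (adjusted p = 0.169). Without ZT2 it was the 1 probe set that passed. After it came CG2121, CarT and MME1, and then Culd, which acts in the endocytic trafficking of rhodopsin in photoreceptors, with a difference of -0.55 ± 0.12 (adjusted p = 0.556). In DD itself the smallest p values belonged to CG6951 (0.37), CG10669 (-0.33), raw (0.32), GluClalpha (0.52) and lncRNA:CR15061 (0.26), each with an adjusted p of 0.966. The other probe set of raw changed by -0.17 in DD, so the probe sets of raw disagree in sign.

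The dusk and dawn grouping shares 4 of its 6 arrays' places with a grouping by light and dark, which moves ZT2 to the light side and ZT14 to the dark side. CG2121 changed by 0.63 in light minus dark against 1.12 in dusk minus dawn, MME1 by 0.50 against 0.77, and CarT by 0.43 against 0.83. At ZT14, after lights-off, CG2121 was 0.73 above its level at ZT2, after lights-on. The fitted 24 h curves of these genes peaked at 9.5 h, 9.3 h and 9.3 h after lights-on. GstD3 and CG17575 had 0.45 and -0.47 in dusk minus dawn, against 0.13 and -0.13 in light minus dark. The corneal lens gene retinin showed the opposite case. It read 9.34, 9.63 and 10.30 at the dusk hours, against 10.04, 10.11 and 9.31 at the dawn hours, a change of -0.06 ± 0.25 (SE) with -0.72 in light minus dark. ZT2 and ZT14 are 1 array each, so the gap between the groupings has no replicate and was not tested. Except for retinin, these genes were chosen by their p in dusk minus dawn. Larger changes in that grouping, and fitted peaks near hour 10, therefore follow in part from the choice.

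**Figure D4:**
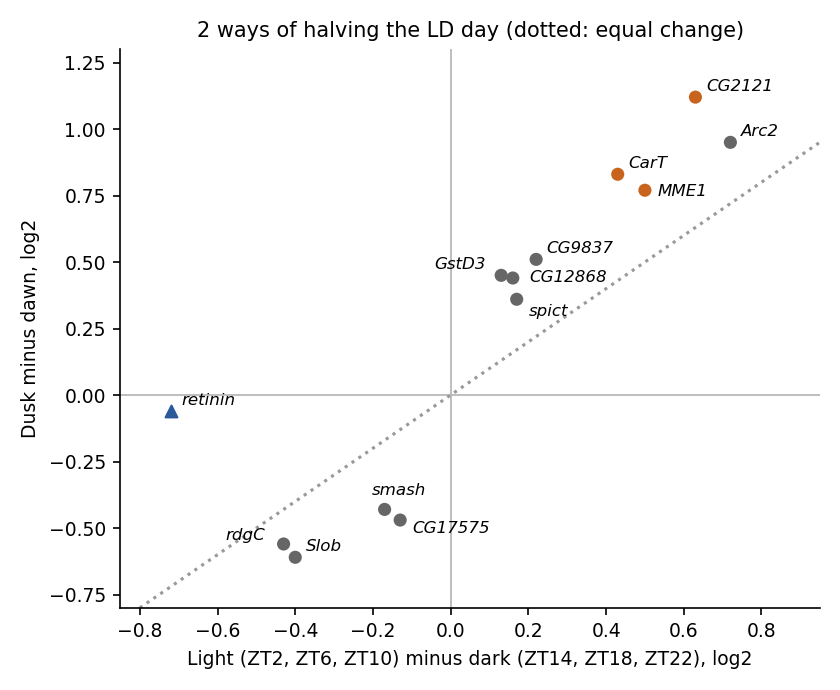
Log2 change of the 12 genes with the smallest p, and of retinin, when the LD day is split into dusk and dawn hours (vertical axis) and into light and dark hours (horizontal axis); orange marks genes that passed in dusk minus dawn, the triangle is retinin, and on the dotted line both changes are equal. CG2121 lies at 0.63 and 1.12, GstD3 at 0.13 and 0.45, and retinin at -0.72 and -0.06. The 12 genes were chosen by dusk minus dawn.

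Gene groups were described over 10844 genes, each by its brightest probe set. At an unadjusted p under 0.05, 4.21% of all genes were higher at dusk and 2.41% lower (6.61% in either direction), and the median change of all genes was 0.01. After adjustment 0.0277% of genes were called, and CarT was the 1 called member of any of 34 lists. Of 14 measured core clock genes, 0 were called and 1 had an unadjusted p under 0.05 (limma): the neuropeptide gene Pdf, at 0.19 ± 0.08 (adjusted p = 0.685) in LD and 0.18 in DD. The list's median change was 0.02, and 0.07 without the 3 arrays. The gene tim read 7.05, 6.93 and 6.92 at the dusk hours, against 6.87, 6.97 and 7.12 at the dawn hours, a change of -0.02 ± 0.09. Its groups overlapped, and where its probes lie relative to the tim01 lesion is not known here. Among the other loop genes the changes were 0.06 for per, -0.17 for Clk, 0.13 for cyc, -0.03 for cry, -0.08 for vri, -0.05 for Pdp1 and 0.06 for cwo.

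Photoreceptor genes had differences in both directions that did not pass. Of 18 phototransduction genes, 1 was higher and 2 lower at an unadjusted p under 0.05 (median 0.03). Among all genes 4.21% were higher and 2.41% lower at that threshold. Leaving out the 3 arrays gave 1 higher and 3 lower, against 2.98% of all genes higher and 2.52% lower. The cation channel gene trpl read 10.06, 10.32 and 9.55 at the dusk hours, against 9.14, 9.47 and 9.75 at the dawn hours. The groups overlapped at ZT14 and ZT2, and the change was 0.52 ± 0.16 (adjusted p = 0.493), and 0.51 without the 3 arrays. Cds, which makes the CDP-diacylglycerol used to rebuild the signalling lipid PIP2, had -0.31 ± 0.07 (adjusted p = 0.283), on the lower side with rdgC.

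Histamine recycling runs from CarT to Tan, the enzyme encoded by t, which splits carcinine into histamine and beta-alanine. The gene t read 6.30, 5.56 and 5.91 at the dusk hours, against 6.14, 6.91 and 6.69 at the dawn hours. ZT6 and ZT18 overlapped, and the change of -0.66 ± 0.17 did not pass (adjusted p = 0.364), nor did -0.99 without the 3 arrays (adjusted p = 0.287). The gene t passed in 1 of 24 alternatives, the cosine (-0.74, adjusted p = 0.00520). Hdc, which makes histamine from histidine, had -0.16. The 13 monoamine and histamine genes had a median of -0.01, and -0.09 without the 3 arrays. With all arrays 1 was higher and 1 lower, against 4.21% and 2.41% of all genes. Of 15 retinoid and eye pigment genes (median 0.05), 2 were higher, against 4.21% of all genes. They were the pigment transporter gene bw (0.25) and the carotenoid oxygenase gene ninaB (0.21). The other probe set of bw gave 0.02, so the probe sets of bw disagree. When the 3 arrays were left out, bw had 0.40 and ninaB 0.03. The list then had 1 member higher and 2 lower and a median of -0.03, against 2.98% of all genes higher and 2.52% lower. Of the 3 corneal lens genes, 0 had an unadjusted p under 0.05 (limma), and their median was -0.01, or -0.15 without the 3 arrays.

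Respiratory chain subunits, glutathione S-transferases and lipid genes were the lists with the most members higher at dusk at an unadjusted p under 0.05. Of 34 glutathione S-transferase genes, 9 were higher and 0 lower at an unadjusted p under 0.05 (26.5%), against 4.21% and 2.41% of all genes. The list's median change was 0.10. Besides GstD3 the higher members were GstE6 (0.38), GstD9 (0.28), GstT2 (0.26), GstE9 (0.26), GstE2 (0.23), GstE8 (0.21), GstO2 (0.17) and GstO3 (0.15). GstE6 read 6.82, 6.62 and 6.72 at the dusk hours, against 6.42, 6.28 and 6.31 at the dawn hours. In all, 11 members had dusk values above all dawn values, where 7.36% of all genes did, and 2 had dusk values below all dawn values, where 4.96% did. The median was 0.11 without the 3 arrays, with 5 members higher against 2.98% of all genes, and 6 were higher with the RNA quality covariate against 3.45%, with 1 lower. In DD 1 member was higher, against 2.28% of all genes. Several members are close copies, so their values are not independent.

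Of 18 lipid metabolism genes, 6 were higher and 0 lower (33.3%, median 0.09), against 4.21% and 2.41% of all genes. SREBP encodes the transcription factor that drives fatty acid synthesis. It read 5.75, 6.08 and 5.82 at the dusk hours, against 5.54, 5.42 and 5.58 at the dawn hours, with no overlap and a change of 0.37 ± 0.08 (adjusted p = 0.274). SREBP passed in 1 of 24 alternatives, the cosine (0.39, adjusted p = 0.0466). The fatty acid synthase gene FASN1 had 0.30, the lipid droplet gene Lsd-1 0.36, the phosphatidate phosphatase gene Lpin 0.26, and the phospholipid synthesis genes Pcyt1 and Pect 0.25 and 0.24. In DD the list's median was -0.03 with 0 members at an unadjusted p under 0.05, where 2.28% of all genes were higher. Without the 3 arrays the median was 0.17, and 6 members were higher at that threshold, against 2.98% of all genes. In that fit 12 of the 18 changes were positive, against 15 with all arrays. With the RNA quality covariate 4 members were higher, against 3.45% of all genes.

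Of 66 oxidative phosphorylation genes, 13 were higher and 0 lower (19.7%, median 0.10), against 4.21% and 2.41% of all genes. Of the 13 higher genes, SdhC belongs to complex II and the rest are ND subunits of complex I. ND-B18 read 7.18, 7.26 and 7.43 at the dusk hours, against 7.04, 7.13 and 6.90 at the dawn hours, a change of 0.27 ± 0.08 (adjusted p = 0.485). ZT2 was the lowest LD array for 12 of the 13 genes. Without ZT2, ZT18 and CT2 the list's median was 0.01 and 3 members were higher, against 2.98% of all genes. With the RNA quality covariate the median was 0.12, and 9 members were higher and 0 lower, against 3.45% of all genes higher. In DD the median was -0.01, with 0 members at an unadjusted p under 0.05, where 2.28% of all genes were higher. The 37 ribosomal protein genes also had a median of 0.10 in LD, with 0 at an unadjusted p under 0.05. Without the 3 arrays their median was 0.07, and 2 were higher at that threshold, against 2.98% of all genes.

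**Figure D5:**
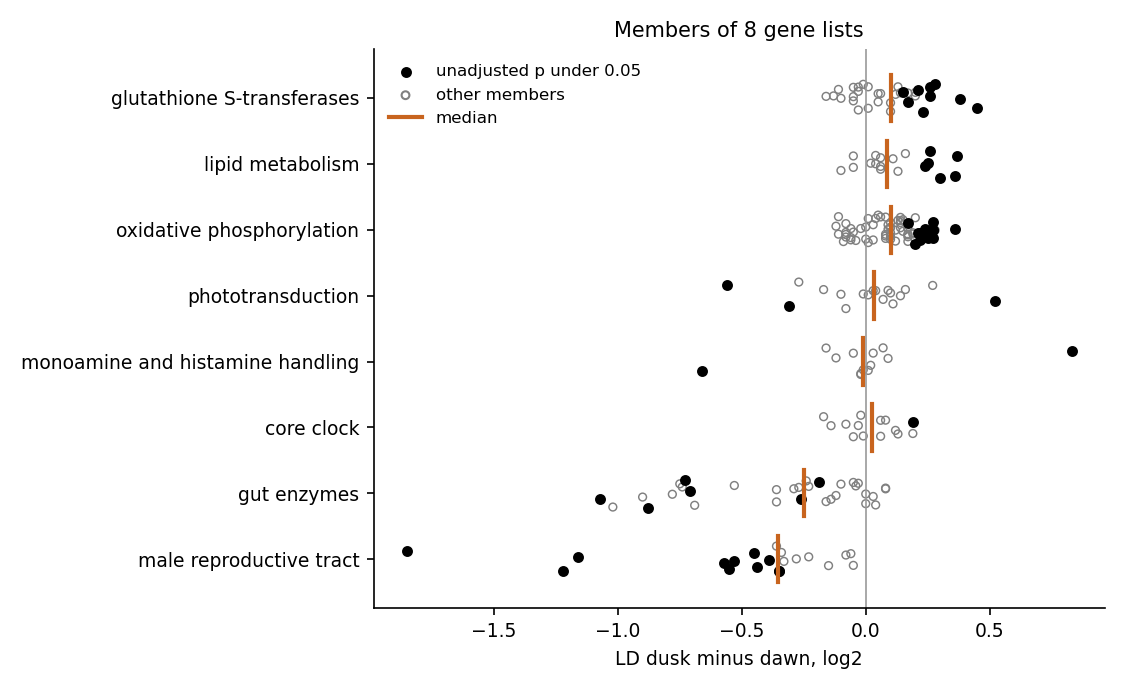
Dusk minus dawn change in LD (log2) of each member of 8 gene lists; filled points had an unadjusted p under 0.05, open points did not, and orange bars are list medians. The medians of glutathione S-transferases, lipid metabolism and oxidative phosphorylation were 0.10, 0.09 and 0.10, those of gut enzymes and male reproductive tract -0.25 and -0.36.

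The lowest medians belonged to transcripts of the trunk. Of 32 gut enzyme genes, 6 were lower and 0 higher at an unadjusted p under 0.05. Of 20 male reproductive tract genes 11 were lower and 0 higher, where 2.41% of all genes were lower. The medians of the gut and male lists, -0.25 and -0.36, were 0.01 and 0.04 without ZT2, ZT18 and CT2. The largest difference of any listed gene was that of Cyp4g1, the cytochrome P450 of oenocytes that makes cuticular hydrocarbons. It read 4.47, 4.64 and 3.72 at the dusk hours, against 7.88, 4.11 and 9.95 at the dawn hours. ZT22 overlapped with the dusk hours, the change was -3.04 ± 1.18 (adjusted p = 0.615), and CT2 also stood high at 8.47. Without the 3 arrays it was 0.16. With the mean level of both lists as a covariate, limma called 7 probe sets in LD. CG2121, MME1 and CarT were among them, with changes of 1.12, 0.87 and 0.83 (adjusted p = 0.0111, 0.0111 and 0.0359).

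The antioxidant list (median 0.12) had 2 of 8 members higher, against 4.21% of all genes. They were the thioredoxin gene Trx2 (0.26) and the thioredoxin reductase gene Trxr1 (0.17). Without the 3 arrays 1 member was higher, against 2.98% of all genes, with Trx2 at 0.35 and Trxr1 at 0.21. With the RNA quality covariate also 1 was higher, against 3.45%. Among 10 immune effectors (median 0.08), the antifungal peptide gene Drs read 8.41, 8.42 and 7.74 at the dusk hours, against 7.48, 7.15 and 7.82 at the dawn hours. The groups overlapped, and the change was 0.71 ± 0.33 (adjusted p = 0.760). Drs passed in 1 of 24 alternatives, the cosine (0.76, adjusted p = 0.00881). Mtk had 1.05 ± 0.50 (adjusted p = 0.774). Without the 3 arrays the changes of Drs and Mtk were 1.04 and 1.22 (adjusted p = 0.692 and 0.868). In DD both genes also varied widely, Drs from 6.95 to 8.37 and Mtk from 7.31 to 9.67. Both were highest there at CT2, a dawn hour, and with CT2 included their DD changes were 0.32 and 0.09. The LD minus DD differences of Drs and Mtk were 0.39 and 0.96 with all arrays. Without the 3 arrays, CT2 among them, these differences were 0.27 and 0.43 (limma, adjusted p = 0.999 each). Of 10 reported clock outputs of the head (median 0.04), Slob was lower and the deubiquitinase gene Usp8 higher at an unadjusted p under 0.05. Among all genes 4.21% were higher and 2.41% lower at that threshold. Usp8 read 8.08, 8.19 and 7.47 at the dusk hours, against 7.05, 6.67 and 7.64 at the dawn hours. Its groups overlapped through ZT14 and ZT2, and the change was 0.79 ± 0.20 (adjusted p = 0.309), or 1.24 without the 3 arrays (adjusted p = 0.107). It passed with the gut and male covariate (1.12, adjusted p = 0.0213), without ZT2 alone (1.05, adjusted p = 0.0403) and with the cosine (0.87, adjusted p = 0.00304).

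Other lists held few genes at an unadjusted p under 0.05, where 4.21% of all genes were higher and 2.41% lower. Higher at an unadjusted p under 0.05 were 3 of 35 odorant-binding proteins (median 0.03), 2 of 83 cytochrome P450 genes (with Cyp4g1 lower; median 0.00), 1 of 39 proteasome subunits (0.03), 1 of 21 neuropeptides (Pdf; 0.01), 1 of 9 activity-regulated genes (0.09), 1 of 8 glia markers (-0.09) and 1 of 3 photolyase and repair genes (0.08). Lower were 1 of 58 cuticle proteins (-0.01), 1 of 8 muscle markers (-0.09) and 1 of 12 eggshell genes (-0.05). For glycolysis (10 genes), starvation and insulin signalling (10), heat shock (9), endoplasmic reticulum folding (8), ecdysone and juvenile hormone (11), ribosome biogenesis (9), UDP-glycosyltransferases (33), and markers of neurons (10), fat body (9) and hemocytes (10), limma gave 0 at an unadjusted p under 0.05, and their medians ran from -0.04 to 0.06. The 10 neuron markers had a median of -0.02, and 3 of them were positive. Without ZT2, ZT18 and CT2, 2.98% of all genes were higher at that threshold and 2.52% lower. Higher were 3 of 9 activity-regulated genes, 1 of 35 odorant-binding proteins, 1 of 83 cytochrome P450 genes and 1 of 21 neuropeptides. Lower were 5 of 83 cytochrome P450 genes, 2 of 58 cuticle protein genes and 2 of 10 starvation and insulin genes. So were 1 of 8 glia, 1 of 8 muscle and 1 of 10 hemocyte markers.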

How the data were processed

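RNA from heads was hybridised to 12 arrays, 1 per hour. About 25 µg of total RNA was labelled per sample, per the labels' protocols. The deposited table holds log2 values that the authors made with RMA, per the submitters' processing notes. Its version is not given in the sources used here. RMA gives all arrays a similar distribution, which hides any change of total RNA, and changes of dim probe sets are compressed. The number of arrays limits the precision.

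Of 14010 probe sets, 44 controls were left out. By the platform annotation 12443 of the probe sets had 1 gene symbol, of which 12394 matched the RefSeq gene table; the 327 with several symbols and the 1196 without one were tested but not named. limma 3.58.1 (R 4.3.3; lmFit, eBayes with trend) fitted 1 mean each for LD dusk, LD dawn, DD dusk and DD dawn hours to all 12 arrays, with 8 residual degrees of freedom, and adjusted p over 13966 probe sets (threshold 0.05). The steps were tested on simulated data.

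Fewer than 5 genes passed, so the 12 genes with the smallest p in LD were named, and the 5 with the smallest p in each other contrast. Of the genes that the same rule gave without ZT2, ZT18 and CT2, those are described that also stand elsewhere in the text. The rule also took in the core clock genes and, from each list, up to 4 genes with the smallest p; further list members, retinin, betaTry and Mst57Da were named after their values were seen. Each listed gene stands by its brightest probe set. The members and lists were chosen with earlier results of these data known.

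Deviations from the group means of the LD and DD arrays of 1 hour correlated at 0.22, 0.13, 0.08, 0.07, 0.33 and 0.40 for hours 6, 10, 14, 18, 22 and 2. Not every pair was above 0.1, so hours were not taken as pairs. The most alike arrays shared 55 identical values, so no array was a copy. Alternatives covered the arrays fitted, moderation, array weights, scaling, dim probe sets, covariates, blocks and a 24 h cosine with its peak at hour 10 (with a sine term), whose coefficient is given as the dusk minus dawn change it implies. The gene lists with the RNA quality covariate were an alternative chosen after seeing the data.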

Additional observations from a re-analysis of the deposited data

How the results depend on the processing

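The LD count of 3 called probe sets became 1 with the 6 LD arrays only, 7 with robust moderation, 8 with array weights, 7 with the gut and male tract covariate, 1 with the RNA quality covariate, 0 without ZT2, ZT18 and CT2, and 18 with the 24 h cosine (14 higher, 4 lower, the 3 called genes among them). With clock hour as a random replicate block it was 4. Leaving out 1 array at a time gave 0 (without ZT18) to 7 (without ZT2, or without ZT14); without ZT22 it gave 6, of which 4 were lower, and without CT2 6. The LD minus DD difference, with 0 calls, gave 2 with the cosine, 0 with clock hour as a fixed replicate block (796 at an unadjusted p under 0.05, limma), and 0 to 2 when 1 array was left out; without ZT14 CarT and Arc2 passed. The count of called list members, 1, was 0 without ZT2, ZT18 and CT2. CG2121 was called in 22 of 24 alternatives and MME1 in 18; CarT was called in 17, and the filter on dim probe sets left it out. Their changes ranged from 0.96 to 1.22, 0.64 to 0.89 and 0.72 to 0.98, and no called change turned its sign. Where a count moved, the cause was not tested. No hour was sampled more than once, so the spread at 1 hour is unknown. RMA compresses changes of dim probe sets such as those of CarT, Arc2, CG17575 and smash.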
